A study of Mus musculus with 6 samples.

Results

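The genes described here encode enzymes and regulators of central carbon metabolism, a set of 53 genes among the 17912 in the expression table. They were picked by matching gene symbols to a list of named enzymes, and all 53 were found. They comprise 20 genes of glycolysis, 7 of the pyruvate dehydrogenase step, 7 of the pentose phosphate pathway, 14 of the tricarboxylic acid (TCA) cycle, and 5 branch enzymes that connect malate, pyruvate, oxaloacetate and citrate. Poly(A) RNA was sequenced from 6 samples whose labels name mouse embryonic stem cells (ESCs). The 3 controls (replicates 1, 2 and 3) have the genotype label WT. The 3 clones (replicates 5, 6 and 7) carry a short hairpin RNA against Exosc2, a subunit of the RNA exosome that degrades and trims RNA, and have the genotype label EXOSC2_KD. Whether the controls carried a hairpin, whether the clones derive from the same line, and whether the libraries are separate cultures is not given in the labels. The p-values therefore reflect only how far these samples scatter, and that scatter may be technical.

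Glycolysis converts glucose to pyruvate in the cytosol, and lactate dehydrogenase interconverts pyruvate and lactate. Pyruvate dehydrogenase passes pyruvate on as acetyl-CoA to the TCA cycle in mitochondria, while the pentose phosphate pathway draws off glucose 6-phosphate to make NADPH in its oxidative part and ribose phosphate in its non-oxidative part. Several steps are catalysed by isoenzymes from separate genes, and mouse ESCs are known for high glycolytic activity.

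The libraries held between 21107761 and 26494985 reads in the table. Exosc2 measured 2295 ± 296 scaled counts (SD, n = 3) in controls and 1038 ± 86.6 in clones, and its 3 clone values were below all 3 control values. The labelled cell type was checked against 22 markers of pluripotent cells, of which 20 were lower and 2 higher in the clones, and 4 (Zfp42, Dppa3, Utf1 and Tcl1) were at 0 in all 3 clones. Their summed level was 144313 to 158447 in controls and 106379 to 116802 in clones, the latter mostly from Pou5f1. The 2 that rose were Pou5f1 (21045 ± 4721 in controls and 91114 ± 2227 in clones) and Klf4 (2415 ± 82.0 and 14169 ± 2032). In the clones most of these markers thus went against the ESC label. Of 15 tested markers of fibroblasts and feeder cells, 14 were higher and 1 lower, with sums of 11391 to 12888 in controls and 58499 to 76167 in clones, and none was at 0. Of 15 epithelial markers 6 were higher and 8 lower, of 8 tested neuronal markers 2 were higher and 5 lower, and of 8 tested striated muscle markers 3 were higher and 5 lower. Krt6a among the epithelial markers was at 0 in all 3 controls, and Snap25 and Elavl3 among the neuronal ones were at 0 in all 3 clones. Epithelial sums were 32967 to 50668 in controls and 40112 to 45212 in clones. Neuronal sums were 5211 to 5476 and 5227 to 5460, and muscle sums 769 to 1254 and 329.8 to 356. The part of these cell states in the enzyme results was not tested, and in bulk RNA fewer cells of a type and less RNA per cell cannot be told apart.

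The controls differed from each other in several members. Control 3 was the highest control for 11 of the 20 glycolysis genes, for 6 of them by more than 1.3-fold over both others. It was the lowest for 6 of the 7 pentose phosphate genes. Control 3 was also the highest control for 17 of 20 target genes of the hypoxia response outside the members. Control 1 was the lowest control for 14 of the 20 glycolysis genes. Control 2 was the highest for 9 of them, and exceeded both others by more than 1.3-fold for 2 pentose phosphate genes. Among the clones, clone 6 was highest for 19 of the 20 glycolysis genes, for 37 of all 53 members and for 16 of the 20 hypoxia targets. What sets these libraries apart was not tested, and values without them are given for some of the members whose call they change.

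The members fell on both sides of the controls. Log2 fold changes compare clones with controls as log2(scaled count + 1), each with its SE, and a gene is called where limma's adjusted p over all 15179 tested genes is below 0.05. All 53 members passed the filter on low values. By this rule 20 members were higher, 15 lower and 18 not called, and across all tested genes 35.2% were higher and 38.3% lower, 73.5% in either direction. The share of members called was thus not above that of the other genes. With quantile normalization 15 members were higher and 21 lower. A call with at least a 2-fold change was made for 14 members, against 48.1% of all tested genes. Control and clone values did not overlap for 40 of the 53, against 77.3% of all tested genes. The median log2 fold change was -0.02 over the members and -0.07 over all tested genes, and the median size of the change, ignoring its sign, was 0.62 and 0.96.

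Within each of the 3 pathways some genes rose and others fell, and differences between the pathways were not tested. Of the 20 glycolysis genes 8 rose and 5 fell, with a median of -0.10. In the pentose phosphate pathway 4 genes rose and 3 fell, with a median of 1.09, and all 7 were called. Of the 14 TCA cycle genes 5 rose and 3 fell, with a median of 0.05 that was -0.12 after quantile normalization. This group includes the cytosolic Idh1 and Mdh1 and the NADP-dependent Idh2, and Idh1 and Idh2 are among its 3 falls. Among the 7 pyruvate dehydrogenase genes 2 rose and 2 fell, and among the 5 branch enzymes 1 rose and 2 fell. Transcripts were summed per kilobase of exon, with all annotated exons of a gene merged. That length can exceed that of the expressed transcript, so levels and shares per kb of different genes are approximate. Glycolysis transcripts measured 98037 ± 10248 scaled counts per kb in controls and 98723 ± 6468 in clones, a ratio of 1.01. The same ratio was 1.24 for the pentose phosphate genes, 0.943 for the TCA cycle, 0.901 for pyruvate dehydrogenase and 1.36 for the branch enzymes. Single glycolysis genes thus moved in opposite directions while the mean summed level in clones stayed within the SD of the controls. Clone 6 (105149) lay just above the highest control (105071). The sum weighs abundant genes most, among which Aldoa fell from 21900 to 14522 per kb and Ldha rose from 12591 to 20738.

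**Figure D1:**
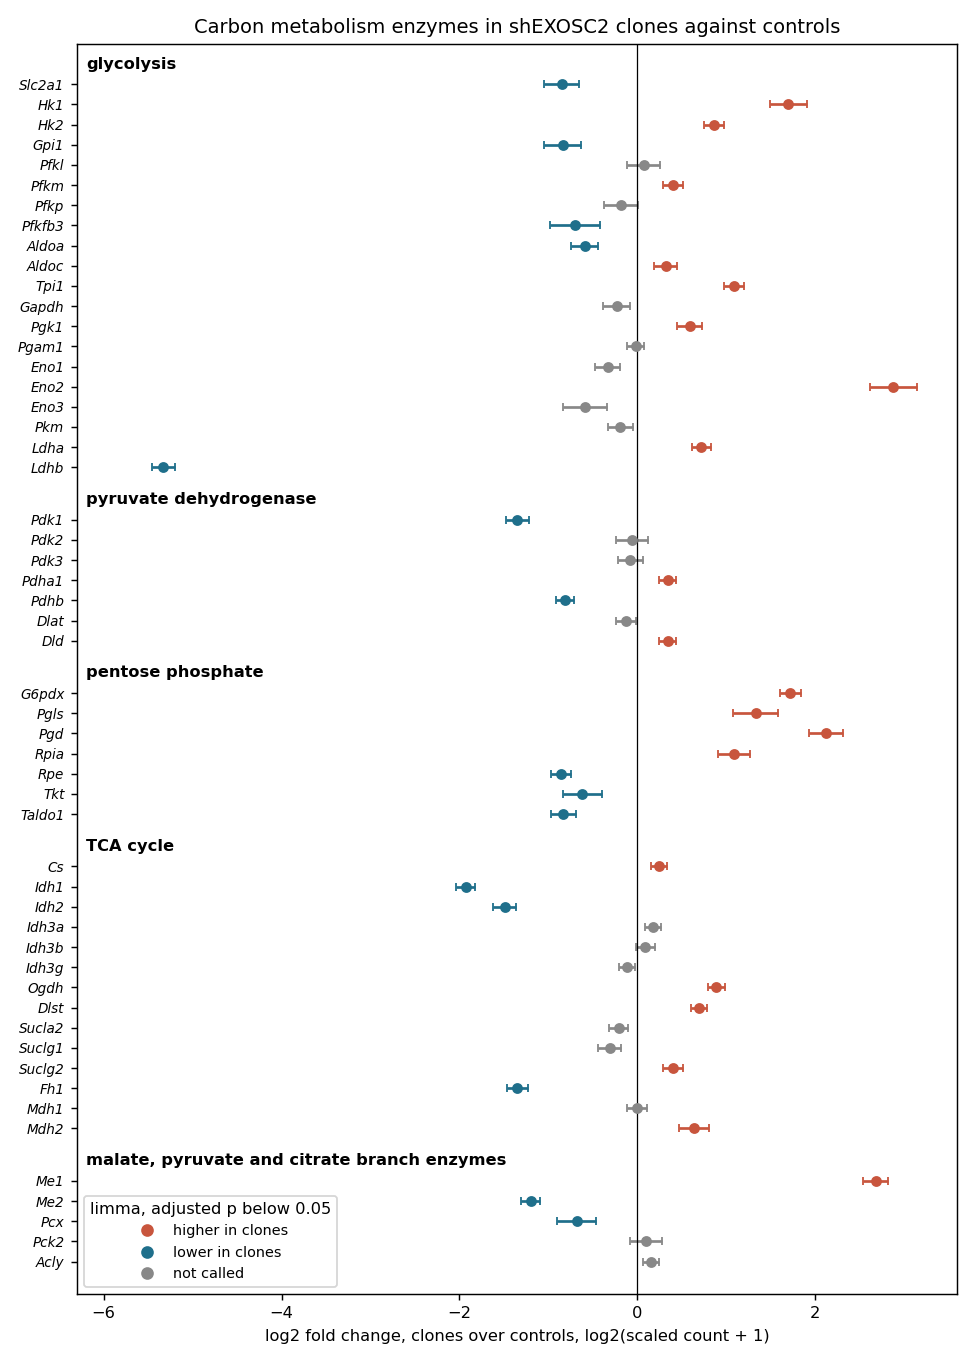
Each point is the log2 fold change of a member, clones over controls, with its SE as the bar (n = 3 libraries per group), grouped by pathway. Ldhb lies lowest at -5.33 and Eno2 highest at 2.88, and the 7 pentose phosphate genes are split into 4 above and 3 below 0.

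All 3 genes of the oxidative part of the pentose phosphate pathway rose. G6pdx, which encodes glucose-6-phosphate dehydrogenase, the entry enzyme, measured 2655, 2347 and 2013 scaled counts in controls 1, 2 and 3 and 7853, 7858 and 7342 in clones 5, 6 and 7 (chromosome X, 74409483 to 74429194 in GRCm38). Pgd, encoding 6-phosphogluconate dehydrogenase, the other NADPH-forming step, measured 4284, 4752 and 2738 and then 15800, 16805 and 17270 in the same order (chromosome 4, 149149991 to 149166771). All 3 clones lay above all 3 controls for both genes, and control 3 was the lowest control. The means rose from 2338 ± 321 to 7684 ± 296 for G6pdx (log2 fold change 1.72 ± 0.12, limma adjusted p = 2.3e-06). For Pgd they rose from 3925 ± 1054 to 16625 ± 751 (2.12 ± 0.19, limma adjusted p = 1.1e-05). Pgls, which encodes the lactonase between them, rose from 577 ± 216 to 1409 ± 251 (log2 fold change 1.33 ± 0.25, limma adjusted p = 0.00116). G6pdx overlaps the coding gene Ikbkg on the opposite strand. Other members also overlap coding genes on the opposite strand, among them Tpi1, Aldoa, Gapdh, Pfkm, Rpe, Pdha1 and Fh1. The sources used here do not state whether strand was used in counting, so reads of such pairs cannot be told apart. Pgls overlaps the coding gene Fam129c on the same strand, where use of strand would not separate them.

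The non-oxidative part was divided. Rpia, encoding the ribose-5-phosphate isomerase that makes ribose 5-phosphate, measured 232, 202 and 164 in the controls and 386, 463 and 419.8 in the clones. It rose by a log2 fold change of 1.09 ± 0.18 (limma adjusted p = 5.0e-04), without overlap. Rpe, encoding the epimerase that works beside it, measured 3262, 2774 and 2570 in the controls and 1569, 1532 and 1603 in the clones. Rpe fell by 0.86 on the log2 scale (SE 0.11, limma adjusted p = 1.3e-04), again without overlap. It lies on chromosome 1, whose tested genes had a median log2 fold change of -0.60, and it was no longer called with chromosome medians subtracted (-0.28). Taldo1, encoding transaldolase, fell from 5414 ± 1017 to 3009 ± 120 (log2 fold change -0.83 ± 0.14), and remained called on that measure (-0.64). Tkt, encoding transketolase, measured 13707, 20853 and 10865 in the controls and 8295, 10581 and 9801 in the clones, a fall of 0.62 on the log2 scale (SE 0.22, limma adjusted p = 0.0306). Control 2 stood above the other controls for Tkt. The Tkt call was lost when control 1, control 2, clone 5 or clone 7 was left out (log2 fold change -0.36 without control 2), with eBayes without trend, and with the chromosome 14 median of -0.57 subtracted (-0.04). Transketolase and transaldolase return pentose carbon to glycolysis.

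Of 5 other pentose phosphate and ribose genes tested, 4 rose and 1 fell, with a median of 0.99. Prps1 and Prps2, paralogs that encode the synthetases using ribose 5-phosphate for nucleotides, moved apart. Prps1 fell from 3479 ± 446 to 1226 ± 106, and Prps2 rose from 1088 ± 156 to 2418 ± 122. Shpk, encoding sedoheptulokinase, rose from 79.0 ± 13.3 to 165 ± 16.8.

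Me1 joined G6pdx and Pgd among the rising sources of cytosolic NADPH, and Idh1 did not. Me1, encoding the cytosolic malic enzyme, which turns malate into pyruvate, measured 730, 588 and 867 in the controls and 4664, 4572 and 4565 in the clones (chromosome 9, 86581371 to 86695953). The clones lay within a narrow band, 6.32-fold above the controls in the mean (log2 fold change 2.68 ± 0.14, limma adjusted p = 5.8e-07). Me2, encoding the mitochondrial malic enzyme, measured 3454, 3091 and 3235 in the controls and 1586, 1355 and 1329 in the clones. It fell by 1.20 on the log2 scale (SE 0.11, limma adjusted p = 1.3e-05), without overlap. Idh1, encoding the cytosolic NADP-dependent isocitrate dehydrogenase, measured 4498, 3726 and 4612 in the controls and 1054, 1160 and 1138 in the clones (chromosome 1, 65158616 to 65186500). It fell by 1.93 on the log2 scale (SE 0.11, limma adjusted p = 1.0e-06), and by 1.35 with the chromosome 1 median subtracted, and remained called. Of 15179 tested genes, 970 had a higher log2 fold change than Me1, 1429 a higher one than Pgd and 2404 a lower one than Idh1.

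The promoters of the NADPH genes that rose are shown because each holds the same short motif. TGACNNNGC is the core of the antioxidant response element, to which the transcription factor encoded by Nfe2l2 is known to bind. It was searched on both strands in the RefSeq promoters of build GRCm38.p6, from 250 bases before to 50 after each start. The stretches below run 5′ to 3′ on the gene's own strand, which is the minus strand for all 3, with the motif in capitals. They cover chrX:74428919-74428947 for G6pdx, chr4:149166061-149166089 for Pgd and chr9:86695902-86695930 for Me1.
G6pdx: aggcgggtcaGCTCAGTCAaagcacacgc
Pgd: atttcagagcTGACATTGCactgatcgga
Me1: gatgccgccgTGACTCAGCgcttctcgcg
In G6pdx the motif reads on the other strand and begins 57 bases upstream of the start. In Me1 it begins 6 bases upstream, and in Pgd 4 bases downstream of the start, for Pgd and Me1 each at 1 of 2 starts listed. The motif was present in 10 of the 51 members with a RefSeq promoter (19.6%) and in 16.9% of tested genes with a promoter. Among the members it was found in 5 of 20 that rose, 2 of 14 that fell and 3 of 17 not called. Its presence is a match of letters and says nothing of binding. Nfe2l2 itself rose from 2565 to 4726 in the mean and Keap1, its inhibitor, from 484 to 1889, both named here after their values were seen.

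**Figure D2:**
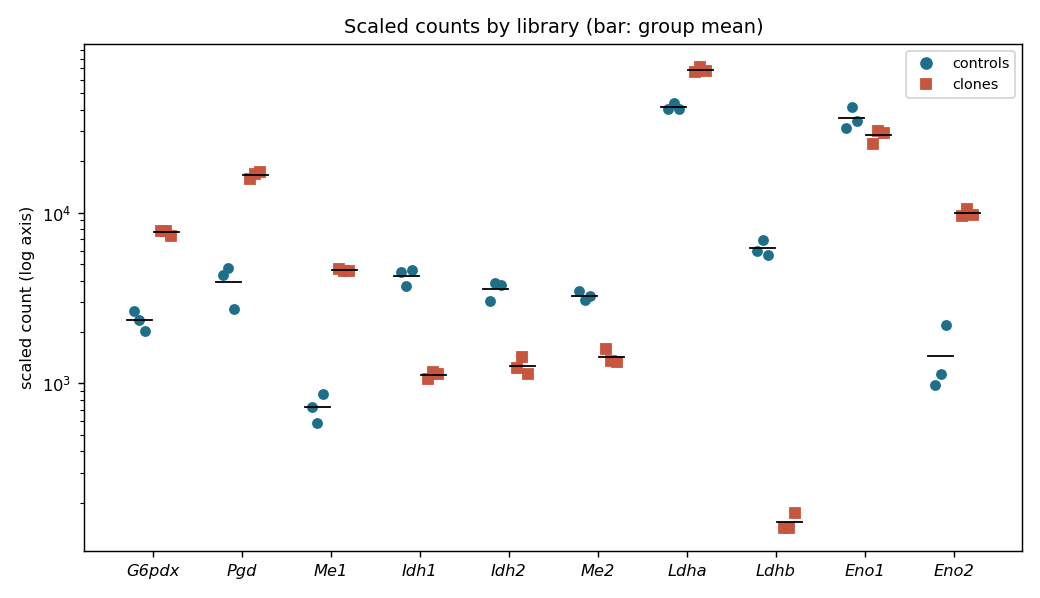
Scaled counts per library on a log axis for 10 members, with circles for controls, squares for clones and a bar at the group mean. Control and clone points are separated without overlap for each of the 10, with the widest gap for Ldhb (5639 to 6914 in controls and 142 to 174 in clones).

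In glycolysis, transport and the first steps moved apart. Slc2a1, encoding the glucose transporter GLUT1, fell from 14006 ± 4145 to 7560 ± 893 (log2 fold change -0.85 ± 0.20, limma adjusted p = 0.0043). Slc2a3, encoding the transporter GLUT3 and not itself a member, measured 43364, 39778 and 67744 in the controls and 36.8, 36.0 and 19.4 in the clones. Both transporters were thus lower in all 3 clones. Hexokinase, which traps glucose as glucose 6-phosphate, was higher for both genes. Hk1 measured 1995, 2378 and 3648 in the controls and 7777, 9621 and 8005 in the clones (log2 fold change 1.70 ± 0.21, limma adjusted p = 7.9e-05). Hk2 measured 8852, 8127 and 9172 in the controls and 15413, 17744 and 14364 in the clones (0.86 ± 0.11, limma adjusted p = 1.3e-04). No control reached any clone for either gene, and control 3 was the highest control for both. Per kilobase of exon, Hk1 made up 17.5% ± 4.09 of hexokinase transcripts in controls and 27.2% ± 1.01 in clones.

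The next step fell. Gpi1, encoding glucose-6-phosphate isomerase at the branch point to the pentose phosphate pathway, measured 22764, 24882 and 41295 in the controls and 15598, 16721 and 15522 in the clones. The clones were close together and below every control, with control 3 far above the others. The log2 fold change was -0.84 ± 0.21 (limma adjusted p = 0.00528), and -0.58 in the weakest leave-one-out fit, where it was still called. Gpi1 thus fell while G6pdx, which takes the same substrate, rose.

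The phosphofructokinase genes, which encode the committing step of glycolysis, included 1 that rose and 2 that were not called. Pfkl, encoding the liver type, measured 6824, 10625 and 9061 in the controls and 7640, 10271 and 9701 in the clones. Pfkp, the platelet type, measured 6264, 5668 and 9721 in the controls and 6122, 6702 and 5736 in the clones. The groups overlapped for both, and neither was called (limma adjusted p = 0.731 and 0.402). Pfkm, the muscle type, measured 1758, 1995 and 1783 in the controls and 2372, 2660 and 2300 in the clones. It rose by a log2 fold change of 0.40 ± 0.11, and was not called after quantile normalization (0.21) or with the chromosome 15 median of 0.30 subtracted (0.14). Pfkfb3, encoding an enzyme that makes an activator of phosphofructokinase, fell from 1100 ± 455 to 653 ± 141 (log2 fold change -0.70 ± 0.28, limma adjusted p = 0.0483). That call was lost without control 1, control 3, clone 5, clone 6 or clone 7, with a value of -0.38 without control 3. It was also lost with a pseudocount of 0.5, with eBayes without trend and with chromosome medians subtracted (-0.64).

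In the middle of the pathway, aldolase fell and triose phosphate isomerase rose. Aldoa, encoding the main aldolase, measured 53455, 70818 and 66981 in the controls and 37243, 45781 and 43794 in the clones (log2 fold change -0.59 ± 0.15, limma adjusted p = 0.00591). Aldoc, encoding the brain type, measured 1265, 1508 and 1519 in the controls and 1620, 2014 and 1719 in the clones (0.32 ± 0.13, limma adjusted p = 0.0488). The groups did not overlap for either gene, but the Aldoc call was lost without control 1, clone 5, clone 6 or clone 7. It was also lost in edgeR, in DESeq2, without the filter, with eBayes without trend, after quantile normalization (0.10) and with chromosome medians subtracted (0.14). Tpi1, encoding triose phosphate isomerase, measured 13377, 14933 and 16146 in the controls and 29913, 33230 and 31498 in the clones. It rose 2.13-fold in the mean (log2 fold change 1.09 ± 0.11, limma adjusted p = 2.4e-05), and by 0.71 with the chromosome 6 median of 0.41 subtracted. Pgk1, encoding phosphoglycerate kinase, rose from 12508 ± 2261 to 18673 ± 819 (log2 fold change 0.59 ± 0.14).

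Gapdh and Pgam1, encoding the dehydrogenase and the mutase on either side of phosphoglycerate kinase, were not called as fitted. Gapdh measured 39035 ± 6903 in controls and 33017 ± 3351 in clones (log2 fold change -0.23 ± 0.15), and Pgam1 4343 ± 275 and 4280 ± 71.3 (-0.02 ± 0.09). With chromosome medians subtracted both were called lower (-0.62 and -0.41). Pkm, encoding the pyruvate kinase of most cells, measured 82223 ± 10498 in controls and 72071 ± 5968 in clones and was not called (limma adjusted p = 0.255), and the counts do not separate its splice forms. The annotation names 2 pseudogenes each for Aldoa, Gapdh, Pgk1, Pgam1 and Ldha, and a copy of Eno1 called Eno1b, so how reads were divided among them is uncertain.

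The enolase genes, which encode the enzymes of the next to last step, changed in composition. Eno1, the ubiquitous form, measured 31182, 41835 and 34431 in the controls and 25398, 30242 and 29485 in the clones (log2 fold change -0.33 ± 0.14, not called, limma adjusted p = 0.0588). Eno1 was called lower in edgeR, in DESeq2, after quantile normalization and without control 1 (-0.42). Eno2, known as neuron-specific enolase, measured 980, 1134 and 2200 in the controls and 9556, 10484 and 9753 in the clones (chromosome 6, 124760053 to 124769673). Eno3, the muscle form, measured 444, 568 and 285 in the controls and 251, 329.8 and 255 in the clones, with overlap (limma adjusted p = 0.0631). Eno3 was called lower in edgeR, in DESeq2, after quantile normalization, with chromosome medians subtracted (-0.76) and without control 3 (-0.86). Eno2 thus stood apart from its paralogs: it rose by a log2 fold change of 2.88 ± 0.26 (limma adjusted p = 1.2e-05), and 850 of 15179 tested genes had a higher one. It made up 4.29% ± 2.06 of enolase transcripts per kb in controls and 28.0% ± 1.29 in clones. Control 3, the highest control for Eno2, gave a share of 6.65%, against 2.89% and 3.33% in the other controls. The enolase sum was 1.05 times that of controls. Of the 8 tested neuronal markers 2 were higher and 5 lower. The sums of that list, which mix rises and falls, overlapped between groups. Which cells the Eno2 transcripts come from was not tested.

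Lactate dehydrogenase showed the largest change of any member. Ldhb, encoding the heart-type subunit, measured 5993, 6914 and 5639 in the controls and 142, 143 and 174 in the clones (chromosome 6, 142490249 to 142507957). Ldha, encoding the muscle-type subunit, measured 40378, 44130 and 40517 in the controls and 66698, 71335 and 67897 in the clones (chromosome 7, 46841475 to 46855627). No clone came near any control for either gene, and the genes moved in opposite directions. Ldhb was 40.4-fold lower in the mean (log2 fold change -5.33 ± 0.13, limma adjusted p = 2.7e-08), and 651 of 15179 tested genes had a lower log2 fold change. Ldha rose 1.65-fold (0.72 ± 0.11, limma adjusted p = 3.1e-04). Ldhb made up 23.8% ± 1.07 of the lactate dehydrogenase transcripts per kb in controls and 0.469% ± 0.0619 in clones, and the sum of both was 1.26 times that of controls. Both calls held in all 6 leave-one-out fits and with chromosome medians subtracted. Per kb, Aldoa was the most abundant member in controls (21900 scaled counts per kb), and Ldha in clones (20738).

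The promoters of these paralogs are shown because the genes moved apart and the stretches shown differ in motifs. ACGTG is the core of the hypoxia response element, and CACGTG is the E-box known to be bound by MYC with MAX, which contains ACGTG, so the motifs overlap. Both were searched on both strands. Each stretch is the 250 bases before a RefSeq start in GRCm38.p6, 5′ to 3′ on the gene's own strand, with matches to ACGTG or CACGTG in capitals. Ldha covers chr7:46845554-46845803 on the plus strand, before 1 of its 2 starts, and Ldhb chr6:142507958-142508207 on the minus strand.
Ldha: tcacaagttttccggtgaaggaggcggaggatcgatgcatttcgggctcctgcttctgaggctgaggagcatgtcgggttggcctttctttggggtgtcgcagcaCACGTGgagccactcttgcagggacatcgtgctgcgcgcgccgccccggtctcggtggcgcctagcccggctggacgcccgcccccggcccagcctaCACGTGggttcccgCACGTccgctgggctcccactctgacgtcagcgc
Ldhb: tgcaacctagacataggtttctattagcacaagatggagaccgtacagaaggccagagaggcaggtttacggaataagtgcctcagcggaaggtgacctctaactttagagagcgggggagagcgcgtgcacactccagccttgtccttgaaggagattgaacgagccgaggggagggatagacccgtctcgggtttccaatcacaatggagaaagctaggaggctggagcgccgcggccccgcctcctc
ACGTG stands in 3 separate places in the Ldha stretch and in none of the Ldhb stretch. The Ldha start shown was picked because its window holds ACGTG. The window of the other listed Ldha start holds none, so the contrast depends on the start chosen. The Ldha stretch holds 25 CG pairs at 67.2% G and C, and the Ldhb stretch 14 at 56.4%. Over the full windows ACGTG was present in 22 of 51 members (43.1%) and in 28.8% of tested genes with a promoter. It did not separate the members by direction, with 9 of 20 that rose, 5 of 14 that fell and 8 of 17 not called. CACGTG was present in 6 of 51 members (11.8%; Ldha, Ogdh, Pcx, Pdk2, Pfkfb3 and Pfkm) and in 11.7% of tested genes. A match of letters shows no binding, and its absence says only that these letters are not in this window.

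Of 23 other glycolysis genes tested, 10 rose and 11 fell, with a median of -0.13 whose sign was not stable. It was 0.55 with a mean of at least 50 (10 higher and 7 lower), 0.05 after quantile normalization, 0.10 without control 2 and 0.07 without clone 5. Besides Slc2a3, those with the smallest p were Pklr, encoding the liver and red cell pyruvate kinase, and Slc2a4, encoding the insulin-responsive transporter. Pklr measured 32.2, 27.0 and 38.2 in the controls and was at 0 in all 3 clones. Slc2a4 measured 91.9, 113 and 204 in the controls and at most 0.995 in a clone. Both were thus low genes that were nearly or fully without reads in the clones.

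At the entry to the TCA cycle, the main kinase gene of pyruvate dehydrogenase fell. Pdk1, encoding a kinase that inactivates the complex, measured 10090, 8918 and 10212 in the controls and 3992, 4251 and 3237 in the clones (log2 fold change -1.35 ± 0.13, limma adjusted p = 1.4e-05). Pdk2 measured 207, 259 and 267 in the controls and 209.9, 262 and 232 in the clones. Pdk3 measured 1737, 1427 and 1257 in the controls and 1381, 1531 and 1261 in the clones. Only Pdk1 of the 3 was called, its groups lay far apart, and those of Pdk2 and Pdk3 overlapped. The sum of these 3 kinase genes per kb was 0.582 times that of controls. Pdk1 made up 65.8% ± 3.27 of it in controls and 44.3% ± 1.76 in clones. Pdk4, a further kinase gene, is not a member and is outside this sum. It fell from 507 ± 193 to 140 ± 44.2 (log2 fold change -1.84 ± 0.32, limma adjusted p = 7.5e-04), and is named here after its values were seen.

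The subunits of the complex did not move together. Pdhb, encoding the beta subunit of the first enzyme, measured 5473, 4733 and 4617 in the controls and 2822, 2880 and 2706 in the clones (log2 fold change -0.81 ± 0.10, limma adjusted p = 9.6e-05). Pdha1, encoding its alpha subunit, measured 8526, 7449 and 7268 in the controls and 9818, 9884 and 9565 in the clones (0.34 ± 0.10, limma adjusted p = 0.0136). Both pairs of groups were free of overlap, in opposite directions for subunits of the same enzyme. Pdhb lies on chromosome 14, and with that median subtracted it was not called (-0.23, limma adjusted p = 0.0566). The Pdha1 call was lost without clone 5 or clone 6 (log2 fold change 0.33 in both fits). Dld, the shared dehydrogenase subunit, rose from 2890 ± 280 to 3649 ± 7.24, a call that was lost without clone 5, clone 6 or clone 7 (0.34 in each) and after quantile normalization (0.16). Dlat, the acetyltransferase subunit, was not called as fitted (2625 ± 272 and 2389 ± 88.0) and was called lower (-0.32) after quantile normalization. Of 10 other genes of this step tested, 1 rose and 5 fell, with a median of -0.36. Pdp2, encoding a phosphatase that opposes the kinases, fell from 490.3 ± 28.99 to 114 ± 4.68. Lipt1, which attaches the lipoyl cofactor, fell from 364 ± 18.8 to 98.2 ± 7.28, and Mpc1, a subunit of the mitochondrial pyruvate carrier, rose from 76.1 ± 6.09 to 198 ± 21.04.

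In the TCA cycle group the NADP-dependent isocitrate dehydrogenases fell and the NAD-dependent enzyme was not called. Idh2, encoding the mitochondrial NADP enzyme, measured 3053, 3846 and 3794 in the controls and 1232, 1429 and 1131 in the clones (log2 fold change -1.49 ± 0.13, limma adjusted p = 1.2e-05). Together with Idh1, described above, its transcripts per kb summed to 0.305 times those of controls. Idh3a, Idh3b and Idh3g, the subunits of the NAD-dependent enzyme of the cycle itself, had log2 fold changes of 0.18, 0.09 and -0.12. None of these was called as fitted. Idh3a was called higher (0.31) with chromosome medians subtracted and Idh3g lower (-0.30) after quantile normalization. The difference between the NADP-dependent and NAD-dependent genes was not tested itself.

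Genes of the next step rose. Ogdh, encoding the first enzyme of the oxoglutarate dehydrogenase complex, measured 3516, 3578 and 4038 in the controls and 6928, 6723 and 6914 in the clones (log2 fold change 0.89 ± 0.10, limma adjusted p = 3.7e-05). Dlst, encoding its succinyltransferase, measured 3539, 3495 and 3289 in the controls and 5390, 5514 and 5728 in the clones (0.69 ± 0.09, limma adjusted p = 1.2e-04). Every clone lay above every control for both. Ogdhl, a paralog of Ogdh and not a member, moved the other way, from 5165 ± 699 to 520.2 ± 52.04.

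Succinyl-CoA synthetase, fumarase and malate dehydrogenase completed the cycle. Sucla2, encoding the ATP-forming beta subunit, measured 3601, 3032 and 3027 in the controls and 2875, 2888 and 2545 in the clones and was not called as fitted. Suclg2, encoding the GTP-forming beta subunit, measured 1980, 1703 and 1821 in the controls and 2496, 2614 and 2185 in the clones (log2 fold change 0.40 ± 0.11, limma adjusted p = 0.0102). The groups did not overlap for either, in opposite directions, but these genes lie on chromosomes 14 and 6, whose medians differ in sign. With them subtracted Sucla2 was called higher (0.37) and Suclg2 was not called (0.02), whereas after quantile normalization Sucla2 was called lower (-0.40) and Suclg2 was not called (0.21). The Suclg2 call was also lost without clone 6 (0.35). Suclg1, the shared alpha subunit, measured 2405 ± 322 and 1935 ± 138 and was not called as fitted (limma adjusted p = 0.0536), but was called lower in edgeR, in DESeq2, after quantile normalization (-0.50), without control 3 (-0.42) and with chromosome medians subtracted (-0.69).

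Fh1, encoding fumarase, measured 5181, 5089 and 4005 in the controls and 1887, 1869 and 1806 in the clones. The clones were below every control (log2 fold change -1.35 ± 0.12, limma adjusted p = 1.1e-05), and with the chromosome 1 median subtracted Fh1 was still called (-0.76). Mdh1, the cytosolic malate dehydrogenase, measured 4678, 4303 and 3660 in the controls and 4236, 4280 and 4075 in the clones, with overlap. Mdh2, the mitochondrial form, measured 6592, 8465 and 5066 in the controls and 9533, 10746 and 10428 in the clones. Mdh2 rose by a log2 fold change of 0.64 ± 0.17 (limma adjusted p = 0.00899), and was not called with the chromosome 5 median of 0.29 subtracted (0.34). Cs, encoding citrate synthase, rose from 9661 ± 425 to 11363 ± 30.6 (0.24 ± 0.09, limma adjusted p = 0.0411). The Cs call was lost in edgeR, with eBayes without trend, after quantile normalization (0.13), with chromosome medians subtracted (0.05) and without clone 5, clone 6 or clone 7.

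Of 12 other TCA cycle genes tested, 3 rose and 7 fell, with a median of -0.45 that was -0.29 with chromosome medians subtracted. Dhtkd1, a paralog of the oxoglutarate dehydrogenase enzyme, fell from 789 ± 195 to 39.6 ± 5.84. Sdhaf2, an assembly factor of succinate dehydrogenase, rose from 769.7 ± 24.7 to 1454 ± 44.8. The 4 subunit genes of succinate dehydrogenase, named here after their values were seen, were called lower as fitted, with log2 fold changes of -0.49 for Sdha, -0.42 for Sdhb, -0.91 for Sdhc and -0.55 for Sdhd. With chromosome medians subtracted Sdhb (-0.13) and Sdhc (-0.33) were not called. The Sdhb call was also lost with eBayes without trend and without control 1, control 2, clone 5, clone 6 or clone 7, with a value of -0.28 without control 2.

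Among the other branch enzymes, Pcx, encoding pyruvate carboxylase, measured 401, 525 and 549 in the controls and 228, 327 and 375 in the clones. The groups did not overlap, and Pcx fell by 0.68 on the log2 scale (SE 0.22, limma adjusted p = 0.0194). The call was lost without control 2, control 3 or clone 5 (-0.47 without clone 5), and the value was -1.07 with the chromosome 19 median subtracted. Pck2, the mitochondrial phosphoenolpyruvate carboxykinase, and Acly, the ATP citrate lyase that makes cytosolic acetyl-CoA, were not called as fitted (log2 fold changes 0.10 and 0.15), and Pck2 was called higher (0.68) with the chromosome 14 median subtracted. Of 15 further genes of this kind tested, 4 rose and 6 fell, with a median of -0.14 that was 0.13 with chromosome medians subtracted. Acss1, the mitochondrial acetyl-CoA synthetase, measured 471, 453 and 493 in the controls and 0, 1.03 and 0.922 in the clones. Got1, the cytosolic aspartate aminotransferase, fell from 5128 ± 147 to 2196 ± 42.3, and Slc25a11, the malate and oxoglutarate carrier, rose from 1308 ± 86.6 to 3056 ± 37.4.

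The isoenzyme pairs were compared directly through the log2 ratio of their scaled counts within each library, over 16 pairs in 10 enzyme families. Control and clone ratios did not overlap for 11 pairs. Among single tested genes 77.3% did not overlap, and ratios of other gene pairs were not computed. The count is therefore not a result particular to these pairs. For each of these the p of the two-sided exact permutation test was 0.1, the lowest value possible with 3 libraries a group, and 0.145 after Benjamini-Hochberg adjustment over the 16, so no pair could pass 0.05. The ratio shifted by at least 1 on the log2 scale, which is 2-fold, for 6 pairs. Ldha over Ldhb went from 2.76 ± 0.09 to 8.80 ± 0.19, and the 9 differences between a clone and a control ranged from 5.75 to 6.28. Me1 over Me2 went from -2.18 ± 0.25 to 1.70 ± 0.12, with differences from 3.45 to 4.17, so the more abundant gene of the pair changed. Eno1 over Eno2 shifted by -3.21 (-3.79 to -2.37) and Eno2 over Eno3 by 3.47 (2.04 to 4.26). Pdk1 over Pdk2 shifted by -1.30 (-1.80 to -0.86) and Pdk1 over Pdk3 by -1.28 (-1.66 to -1.01). These 4 ratios share Eno2 or Pdk1 and are not independent.

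Smaller shifts without overlap were -0.91 (-1.05 to -0.73) for Aldoa over Aldoc, 0.85 (0.34 to 1.31) for Hk1 over Hk2, and -0.64 (-0.89 to -0.19) for Mdh1 over Mdh2. Pfkm over Pfkp shifted by 0.59 (0.14 to 1.13), and by 0.10 with chromosome medians subtracted. Sucla2 over Suclg2 shifted by -0.62 (-0.72 to -0.51), and turned to 0.35 with chromosome medians subtracted. For the 5 other pairs the ratios overlapped between groups. Idh1 over Idh2 shifted by -0.44 (-0.86 to 0.06). Pdk2 over Pdk3 shifted by 0.02 (-0.48 to 0.62), Eno1 over Eno3 by 0.26 (-0.40 to 0.72), Pfkl over Pfkm by -0.33 (-0.73 to 0.12) and Pfkl over Pfkp by 0.26 (-0.59 to 0.86).

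**Figure D3:**
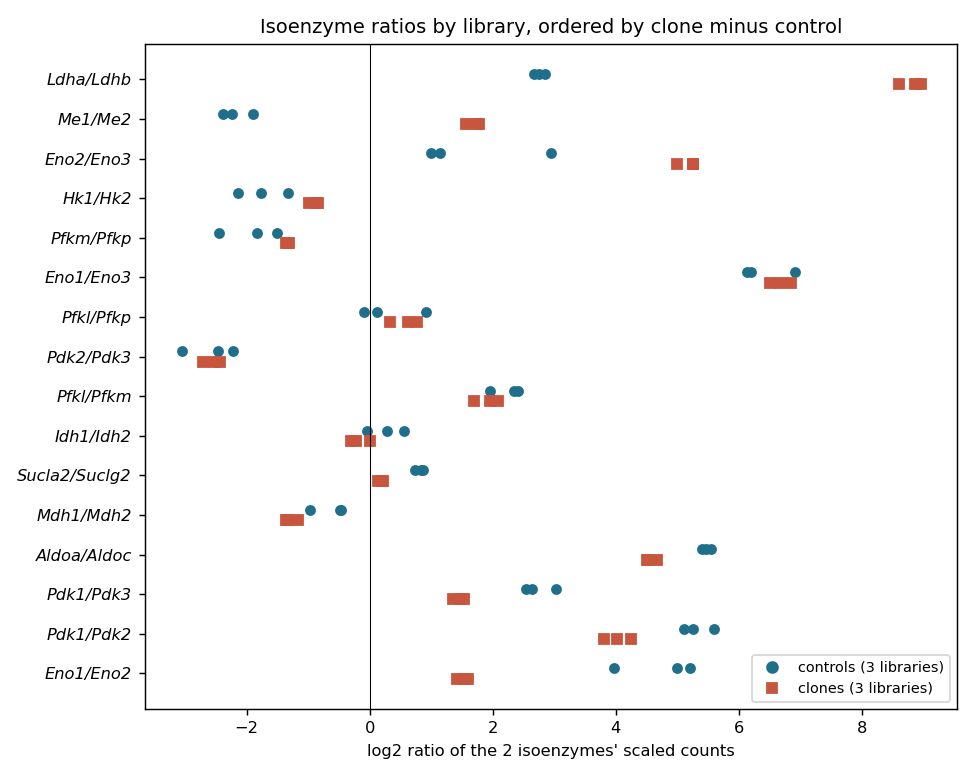
Each row gives the log2 ratio of the scaled counts of 2 isoenzymes in each library, with circles for controls and squares for clones, ordered by clone minus control. Ldha/Ldhb and Me1/Me2 are at the top with wide gaps between the groups, Eno1/Eno2 is at the bottom, and 5 pairs overlap.

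As shares of transcripts per kb, Me1 made up 29.5% ± 3.69 of malic enzyme in controls and 85.9% ± 1.04 in clones. Mdh1 made up 47.0% ± 4.90 and 36.3% ± 1.61 of malate dehydrogenase, and Pdk3 30.1% ± 3.73 and 49.0% ± 1.02 of the member kinases, without Pdk4. Aldoc stayed a minor form at 1.97% ± 0.102 and 3.63% ± 0.216 of aldolase. In the phosphofructokinase family Pfkl was the largest share per kb in every library (54.5% ± 5.6 in controls and 53.4% ± 3.59 in clones). In control 3 this depended on the lengths used (6675 bases for Pfkl and 13401 for Pfkp). There the scaled count of Pfkp (9721) was above that of Pfkl (9061). Family sums per kb were 2.18 times those of controls for malic enzyme, 2.06 for hexokinase, 1.28 for malate dehydrogenase, 1.07 for phosphofructokinase, 1.01 for succinyl-CoA synthetase beta and 0.675 for aldolase.

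**Figure D4:**
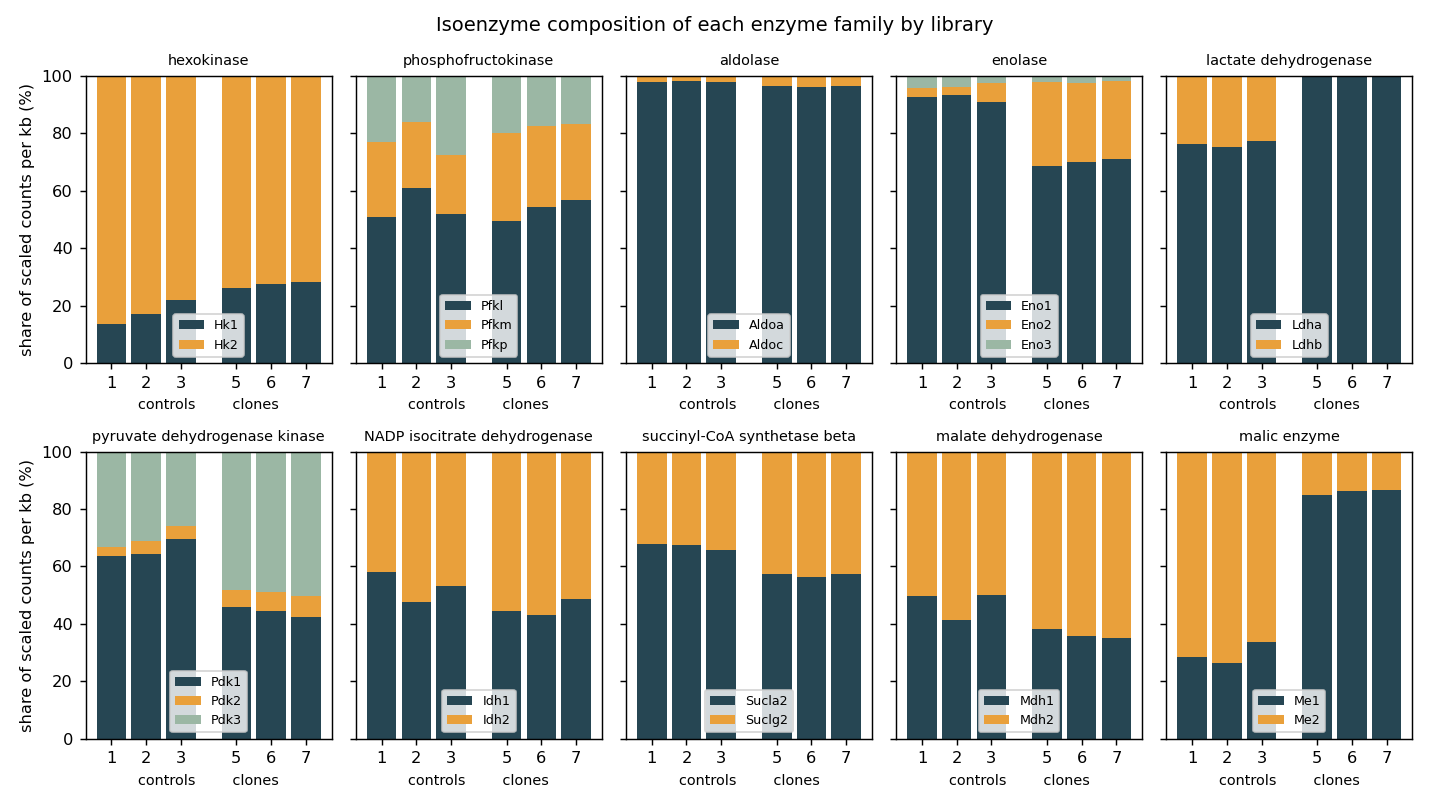
Stacked bars give each isoenzyme's share (%) of the scaled counts per kb of exon among its family's members. They show 10 families in controls 1 to 3 and clones 5 to 7. Ldhb shrinks from 23.8% to 0.469%, Eno2 grows from 4.29% to 28.0% and Me1 from 29.5% to 85.9%, while Pfkl stays near 54.5%.

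Of 23 regulators of these pathways tested, 10 rose and 7 fell, a share close to the 73.5% called among all tested genes. Their median was 0.27, and 0.05 after quantile normalization. The 3 with the smallest p were Lin28a, Mycn and Myc. Lin28a, encoding an RNA-binding protein of pluripotent cells, measured 7997, 7070 and 5931 in the controls and 0, 0 and 2.77 in the clones. Mycn fell from 3064 ± 1228 to 8.82 ± 1.69, and its paralog Myc measured 327, 299 and 168 in the controls and 10904, 12619 and 12054 in the clones. The hypoxia factor genes Hif1a and Epas1 rose, from 2748 ± 487 to 8711 ± 386 and from 1618 ± 457 to 23992 ± 4408. Arnt, encoding their partner, fell from 3590 ± 591 to 2252 ± 82.3. All 3 are named here after their values were seen, and their part in the enzyme results was not tested. Of 20 hypoxia target genes outside the members, 6 rose and 4 fell, with a median of 0.20. Without control 3, the highest control for 17 of these genes, 10 rose and 3 fell, with a median of 0.47. The median was 0.11 without control 2 and 0.12 without clone 6. Ppfia4 fell from 589 ± 156 to 10.4 ± 2.16 and Ddit4, an inhibitor of mTORC1 signalling, from 6861 ± 1005 to 1458 ± 234. Egln3, encoding an oxygen-sensing prolyl hydroxylase, rose from 3555 ± 374 to 13707 ± 2399.

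Whole chromosomes differed between the groups, with members on them. Tested genes had median log2 fold changes of -0.60 on chromosome 1, -0.57 on chromosome 14 and 0.41 on chromosome 6, and the origin of these shifts was not tested. With each chromosome's median deviation subtracted in each library, 18 members were higher and 15 lower. Of the 35 called members 9 were no longer called, namely Pfkm, Pfkfb3, Aldoc, Pdhb, Rpe, Tkt, Cs, Suclg2 and Mdh2. Another 7 were called on that measure but not as fitted, with Gapdh, Pgam1, Eno3 and Suclg1 lower and Idh3a, Sucla2 and Pck2 higher. Eno2, Me1, Pgd, G6pdx, Hk1, Ldhb, Idh1, Idh2, Pdk1, Me2 and Fh1 kept their direction and their call. Pgls lies on chromosome 8, where the median was -0.49, and its log2 fold change was 1.81 with that subtracted.

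**Figure D5:**
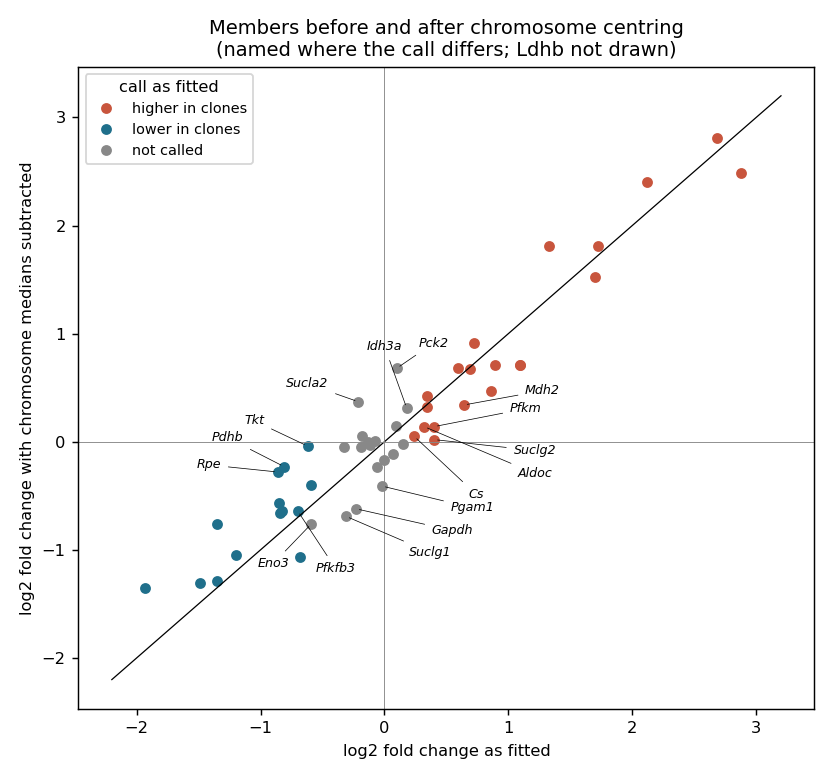
Each point is a member, with its log2 fold change as fitted on the x axis and with chromosome medians subtracted on the y axis, coloured by the call as fitted, and Ldhb is left out for scale. The 16 members whose call differs are named, and the members with the largest changes, such as Eno2 (2.88 and 2.49) and Me1 (2.68 and 2.81), stay near the diagonal.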

How the data were processed

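Poly(A) RNA from 3 control and 3 shEXOSC2 libraries was measured, using 8 PCR cycles and the TruSeq Stranded mRNA kit on 500 ng of RNA, per the labels' protocols. The submitters' processing notes name DESeq 1.22.1, HTSeq 0.5.3, STAR 2.5.0a and cutadapt 1.6, and build mm10. The deposited values are a signal, gene read counts scaled by DESeq per the file header and those notes. Strand settings were not given in the sources used here. Values in each library were whole multiples of a step within 0.001 read for 100.0% of genes, so whole reads were recovered; a general test of this recovery could not be applied to clone 5 and control 3, whose steps lie close to 1. The lowest sum over the libraries was 15 reads.

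Groups came from sample titles. The table's 17912 genes were matched by identifier to GENCODE M21 (17860, 99.71%), which gave positions and exon lengths. The exon length of a gene is that of all its annotated exons merged. Replicates differed by more than counting noise (chi-square per degree of freedom 12.18 to 62.13). Genes with a mean of at least 10 were tested with limma 3.58.1 (eBayes with trend) on log2(scaled count + 1), which understates changes of low genes, with Benjamini-Hochberg adjustment over 15179 genes. Isoenzyme ratios were tested by two-sided exact permutation over libraries. Members and lists were chosen with earlier results of these data known. Values in every library are given for isoenzyme pairs and the 3 members of each group with the smallest p, and for some others; of each list of other genes the 3 with the smallest p are named. RefSeq promoters (GRCm38.p6) matched 51 of 53 members.

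The settings varied were the pseudocount (0.5 or 5), the filter (none, or a mean of at least 50), the scaling (quantile, or TMM), eBayes (without trend) and the test (DESeq2 1.42.0 or edgeR 4.0.16, run on the whole reads). In chromosome centring, each chromosome's median deviation from the control mean was subtracted within each library. Each library was also left out in turn. The test was also run on simulated data in which a small part of the genes had known changes. In the real data 73.5% of tested genes were called, so the simulation does not check the scaling under such broad change. Software was Python 3.11.15 (numpy 2.4.6, scipy 1.17.1, pandas 2.3.3, matplotlib 3.10.9) and R 4.3.3.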

Additional observations from a re-analysis of the deposited data

How the results depend on the processing

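Of the 35 called members, 23 kept their call in every setting run, 25 in the 10 settings other than leave-one-out, and 0 changed sign. The 21 genes outside the members named for the smallest p in their lists kept their calls in every setting run; Sdhb and Sdhc, named otherwise, did not (their values stand with them above). With 3 libraries a group, leaving 1 out also lowers the power of the test. The control and clone numbers (1 to 3 and 5 to 7) share no value: No paired analysis was possible because the groups compared share no replicate number. What moved the values below was not tested.

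Quantile normalization gave 1 higher call for pyruvate dehydrogenase, and 3 higher and 6 lower for the TCA cycle. The median log2 fold changes were then -0.15 for all members, -0.29 for pyruvate dehydrogenase, -0.12 for the TCA cycle and -0.12 for the branch enzymes, and members not called changed sign (Pfkl -0.04, Idh3b -0.09, Mdh1 -0.16 and Pck2 -0.12). Chromosome centring gave 1 lower call for pyruvate dehydrogenase, 1 lower for the pentose phosphate pathway and 2 higher for the branch enzymes, with medians of 0.71 for the pentose phosphate pathway and -0.02 for the branch enzymes. Signs then changed for Pfkl (-0.11), Pfkp (0.05), Pdk3 (0.01), Dlat (0.00), Sucla2 (0.37), Mdh1 (-0.17) and Acly (-0.02), and for the ratios Pfkl/Pfkp (-0.16), Pdk2/Pdk3 (-0.24) and Sucla2/Suclg2 (0.35). Mdh1 was -0.03 in edgeR and -0.02 in DESeq2.

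Leaving out each library gave 0 to 2 higher calls for pyruvate dehydrogenase, 3 to 5 higher for the TCA cycle and 1 to 2 lower for the branch enzymes. Medians ranged from -0.04 to 0.09 for the TCA cycle and from -0.07 to 0.15 for the branch enzymes. Members not called crossed 0, with ranges of -0.10 to 0.22 for Pfkl, -0.34 to 0.05 for Pfkp, -0.07 to 0.02 for Pgam1, -0.17 to 0.02 for Pdk2, -0.18 to 0.05 for Pdk3, -0.10 to 0.08 for Mdh1 and -0.07 to 0.24 for Pck2. The Pdk2/Pdk3 ratio ranged from -0.22 to 0.19.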
